A study of Homo sapiens with 30 samples.

Results

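Integrins and laminins were described as a gene family in UMUC1 cells, an established human bladder cancer line. The members were every gene in both deposited count tables whose symbol is that of an integrin alpha subunit, an integrin beta subunit or a laminin alpha, beta or gamma chain. This rule used names only and found 34 genes, 22 integrin subunits and 12 laminin chains, of 19408 genes present in both tables. A further 4 integrin genes, ITGA4, ITGA9, ITGAD and ITGB2, were in the first table only. After removal of genes with too few reads, 32 members (14 alpha subunits, 7 beta subunits and 11 laminin chains) were tested in the first experiment and 31 (14, 7 and 10) in the second. ITGA8 and LAMC3 were tested in neither, and LAMA2 was tested in the first only.

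The series used RNA sequencing to ask how UTX, the histone demethylase encoded by KDM6A, and FGFR3, a receptor tyrosine kinase, alter transcription in this line, which the series record describes as having lost UTX function. It holds 30 libraries in 10 groups of 3, from 2 experiments. In the first experiment (18 libraries) cells carried the pSIN-puro vector empty (EV), with wild type UTX, or with UTX holding the H1146A and E1148A substitutions (abbreviated HEAA). Each of these was grown in full medium, which is MEM with 10% fetal bovine serum, or in sphere medium, which is MEM without serum that contains B27 supplement lacking vitamin A, FGF2 and EGF (each at 20 ng/ml), and was harvested 3 days after plating. In the second experiment (12 libraries) all cells carried an FGFR3 transgene, wild type or with the S249C substitution, in the pBabe-puro vector. They also carried the pCDH-blasticidin vector, empty or with UTX, and grew in full medium. All of these are lines made by introducing a vector into 1 parental line, so every UTX group is an overexpression model. Whether the replicates were grown apart is not in the labels, so the p-values speak only of the spread among these libraries, and that spread may be technical.

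Integrins are membrane receptors made of 1 alpha and 1 beta subunit that bind matrix outside the cell and the cytoskeleton inside it. Laminins are trimers of an alpha, a beta and a gamma chain and form the sheet of the basement membrane on which epithelial cells such as those of the bladder lining rest. The integrin of ITGA6 and ITGB4 binds a laminin that contains LAMA3 and LAMB3, and together they form the core of the hemidesmosome, the rivet-like contact that ties the keratin skeleton of basal epithelial cells to the basement membrane.

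Each library of the first experiment held 23749352 to 40111234 counts and each of the second held 21672408 to 28290664. KDM6A followed the labels in every group: its mean was 17.4 CPM (counts scaled to a fixed total per library) in EV and 579 in UTX cells in full medium, and 15.8 and 824 CPM with wild type FGFR3. The third UTX library with S249C stood below its 2 replicates, at 699 CPM of KDM6A against 941 and 946, and for UTX cells with S249C the counts of called genes and the values of the members named are also given without it. Shares of all genes, medians and counts of groups that do not overlap include it unless stated otherwise. HEAA cells held more KDM6A RNA than UTX cells, at 693 CPM in full medium (UTX minus HEAA log2 -0.26 ± 0.04, adjusted p = 2.65e-05) and 942 against 859.8 in sphere medium (-0.13 ± 0.04, 0.0139). FGFR3 RNA was at 1300.5 CPM with wild type FGFR3 and 2322 with S249C in EV cells (log2 0.84 ± 0.05, adjusted p = 2.37e-07), and at 1243 and 2587 in UTX cells (1.06 ± 0.05, 6.38e-08). In the first experiment epithelial markers summed to between 5413 and 17864 CPM per library, fibroblast markers to at most 58.9, leukocyte markers to at most 24.6, endothelial markers to at most 4.77 and platelet markers to at most 0.873.

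Among the members, the hemidesmosome pair ITGA6 and ITGB4 had the highest means in every group of the first experiment, once reads were divided by each gene's exon length. In EV cells in full medium ITGA6 stood first at 235 ± 3.67 CPM per kb of exon (mean ± SD, n = 3) and ITGB4 at 134 ± 4.10 came next. ITGB1, the shared beta subunit of many matrix receptors, followed at 114 ± 3.51, and LAMB3 at 99.5 ± 4.68. These 4 did not overlap across libraries. LAMA3, whose annotated exons include those of long and short transcripts, gave 13.7 ± 0.257. The order was not fixed. In UTX cells in full medium ITGB4 reached 237 ± 7.09 CPM per kb and its libraries overlapped those of ITGA6 at 241 ± 10.1. In UTX cells with wild type FGFR3, LAMB3 (313 ± 3.35) stood above ITGA6 (294 ± 8.17) and ITGB4 (254 ± 13.0). At the other end, 12 of the 34 members stayed under 2 CPM in every group of the first experiment, among them the leukocyte subunits ITGAL, ITGAM and ITGAX, the platelet subunit ITGA2B and its partner ITGB3.

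**Figure D1:**
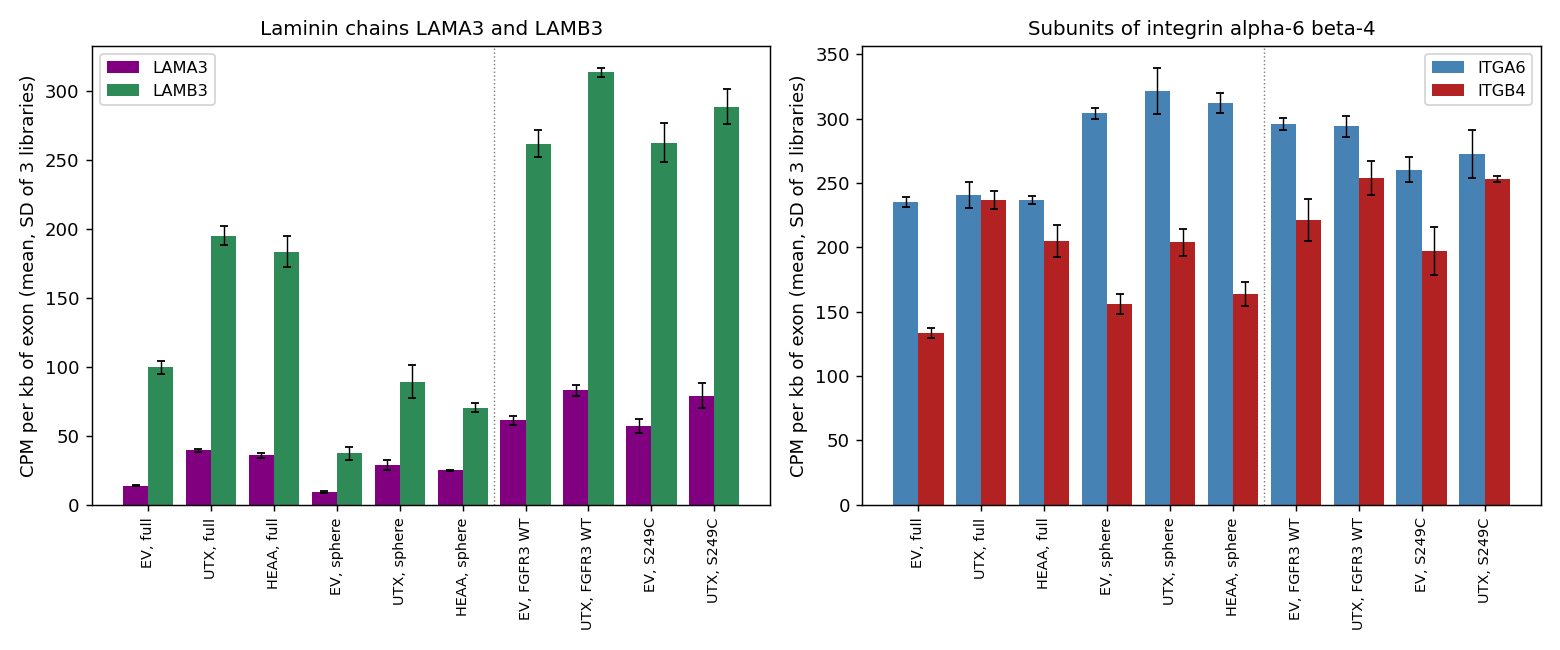
Mean level of the laminin chains LAMA3 and LAMB3 and of the integrin subunits ITGA6 and ITGB4 in all 10 groups, in CPM per kb of exon; bars are means of 3 libraries and error bars are SD. ITGA6 spans 1.367-fold over the groups of the first experiment, while the laminin chains of the first experiment are lowest in EV cells in sphere medium. The 2 experiments were normalized apart.

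ITGB4 (ENSG00000132470) lies on chromosome 17 from 75721328 to 75757818 on the plus strand, ITGA6 (ENSG00000091409) on chromosome 2 from 172427354 to 172506282, plus strand, and LAMA3 (ENSG00000053747) on chromosome 18 from 23689443 to 23956222, plus strand, all in GRCh38. LAMB3 (ENSG00000196878, chromosome 1, 209614870 to 209652466) is on the minus strand. ITGB6 (ENSG00000115221) lies on chromosome 2 from 160099666 to 160200313, minus strand. The exons of ITGB4, LAMA3, LAMB2, LAMB3 and LAMC1 share no stretch of at least 100 bases in all with the exons of any other annotated gene. ITGB6 shares 966 exonic bases with AC092153.1, ITGB3 shares 2266 with AC068234.1 and ITGA1 shares 1046 with PELO and AC022133.1, each on the same strand, so reads there can belong to either gene. The largest overlaps with the opposite strand were 1886 bases of ITGB7 with ZNF740 and 1754 of LAMA1 with AP002409.1 and AP005062.1. If the libraries were not stranded, which is not stated here, the same limit holds for these.

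Promoter windows of RefSeq (GRCh38.p14) ran from 250 bases before to 50 after a transcript start. They were searched because LAMA3 and LAMB3 were both called higher with UTX in both media and with wild type FGFR3. With S249C LAMA3 was called and LAMB3 was not. Windows were found for 26 of the 38 genes the name rule finds in either table, 33 windows in all, and none for ITGB4 or ITGA3. The AP-1 motif TGANTCA, read on both strands, occurred in 7.71% of all 35116 windows. It occurred in 3 of the 33 member windows (9.09%), those of LAMA3, LAMB3 and ITGA5. The matches are shown with the motif in capitals, each on the strand of its gene, at 125 and 69 bases before the LAMA3 start, 67 before that of LAMB3 and 6 before that of ITGA5. Each start is that of the window, and genes can have others. The LAMA3 start, at 23873020, lies inside the gene, which has 10 annotated coding starts. LAMB3 has 3 windows, and only the third held the motif. All 30 bases shown for each LAMA3 match and for ITGA5 lie in annotated exons of the gene, and 0 of those for LAMB3. The matches are of letters and are not measured binding sites.
LAMA3 chr18:23872884-23872913 (+): ctggcacaggcTGACTCAtgtgtgaagttt
LAMA3 chr18:23872940-23872969 (+): ccttcctcaccTGAGTCAggcaggcccggg
LAMB3 chr1:209651423-209651452 (-): gtcagccactcTGACTCAttcactttgggc
ITGA5 chr12:54419254-54419283 (-): cctccccgcgtTGAGTCAttcgcctctggg
Of the other motifs searched, the TEAD motif GGAATG occurred in 4 of 33 member windows and 14% of all, the KLF and SP motif GGGCGG in 19 of 33 (57.6%) and 45% of all, and the GRHL motif AACNGGTT in 0 of 33 and 1.73% of all. The KLF and SP motif was in the LAMA3 window and in all 3 LAMB3 windows. None of these motifs contains another, and the part of any motif in the levels was not tested.

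Wild type UTX in full medium was compared first, against EV cells. The laminin chains LAMA3 and LAMB3 and their receptor subunit ITGB4 were higher with UTX, whereas the other receptor subunit, ITGA6, was not called. LAMA3, the alpha chain that carries the receptor-binding end, was at 204, 203 and 197 CPM in the 3 EV libraries and at 598, 565 and 577 in the 3 UTX libraries, a 2.88-fold rise (log2 1.53 ± 0.07, SE; adjusted p = 3.03e-14). The beta chain LAMB3 went from 466, 489 and 445 to 949.6, 903 and 886 CPM (log2 0.97 ± 0.08, adjusted p = 1.05e-09). For both chains, every UTX library was above every EV library. ITGB4 was at 887, 935 and 887 CPM with EV and at 1646, 1551 and 1608 with UTX (log2 0.83 ± 0.05, adjusted p = 4.71e-12), again without overlap. ITGA6 gave 1556, 1548 and 1511 and 1649, 1525 and 1548 CPM, and the libraries overlapped (log2 0.03 ± 0.04, 95% interval -0.04 to 0.11, adjusted p = 0.449). In bulk RNA such as this, a smaller number of cells expressing a gene and less RNA per cell cannot be told apart.

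Over the family, 21 of the 32 members tested were called in this comparison at adjusted p under 0.05 (edgeR's quasi-likelihood test, adjusted over all genes), 16 higher and 5 lower. Among all 19629 genes tested, 57.7% were called, 28.4% higher and 29.2% lower, so the share of members called (65.6%) was near the background, while their median log2 change was 0.37 against 0.04 for all genes. The groups did not overlap for 19 of 32 members and for 63.6% of all genes. By class, 6 of 14 alpha subunits (4 higher, 2 lower), 6 of 7 beta subunits (5 and 1) and 9 of 11 laminin chains (7 and 2) were called. Of the members called, 6 changed at least 2-fold. No share of all genes is given beside counts of 2-fold changes, here or later, so they cannot be set against the background.

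ITGB6, which pairs with ITGAV to activate latent TGF-beta in epithelia, rose most among the abundant members, from 94.6, 99.2 and 92.0 to 307, 280.3 and 272 CPM (3.01-fold; log2 1.59 ± 0.06, adjusted p = 5e-15), with no overlap. Its partner ITGAV was at 267, 268 and 254 CPM with EV and 370.2, 317 and 331 with UTX, log2 0.37 ± 0.05. ITGB1 rose by 0.61 on the log2 scale, and its laminin- and collagen-binding partners ITGA3 and ITGA2 rose by 0.60 and 0.37. ITGA5, the fibronectin receptor subunit, was low and went from 9.67 to 14.1 CPM. The laminin chains of the mature epithelial basement membrane also rose, LAMA5 from 1251 ± 50.4 to 1783 ± 93.4 CPM (log2 0.51 ± 0.05) and LAMB2 from 98.0 ± 5.86 to 172 ± 6.34 (log2 0.81 ± 0.06). LAMB1 and LAMC1, found in most laminins, differed by log2 0.13 and 0.14. Both were called, but their libraries overlapped. The LAMB1 call was lost without the first library or the third of either group (adjusted p = 0.0722 and 0.129 for EV, 0.0661 and 0.0757 for UTX), and the LAMC1 call without the first EV library, the third EV library or the first UTX library (0.0656, 0.107 and 0.133).

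The members that fell with UTX in full medium were LAMA4, ITGA1, ITGB8, ITGAE and LAMB4. LAMA4, an alpha chain best known from vessel and mesenchymal basement membranes, was at 154, 152 and 149.6 CPM with EV and 94.3, 85.9 and 90.2 with UTX (log2 -0.75 ± 0.05, adjusted p = 5.14e-11). ITGA1, a collagen receptor subunit, was at 6.79, 6.24 and 6.54 and 2.29, 2.46 and 2.23 CPM (log2 -1.49 ± 0.12, adjusted p = 1.07e-09). For both genes the groups were separate. ITGA1 and ITGA2 are neighbours on chromosome 5 (52787896 to 52959210 and 52989326 to 53094779) and moved in opposite directions here. ITGB8, which also pairs with ITGAV, went from 21.9 ± 1.19 to 14.6 ± 2.03 CPM. LAMB4 was under 1 CPM in every group of this experiment.

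**Figure D2:**
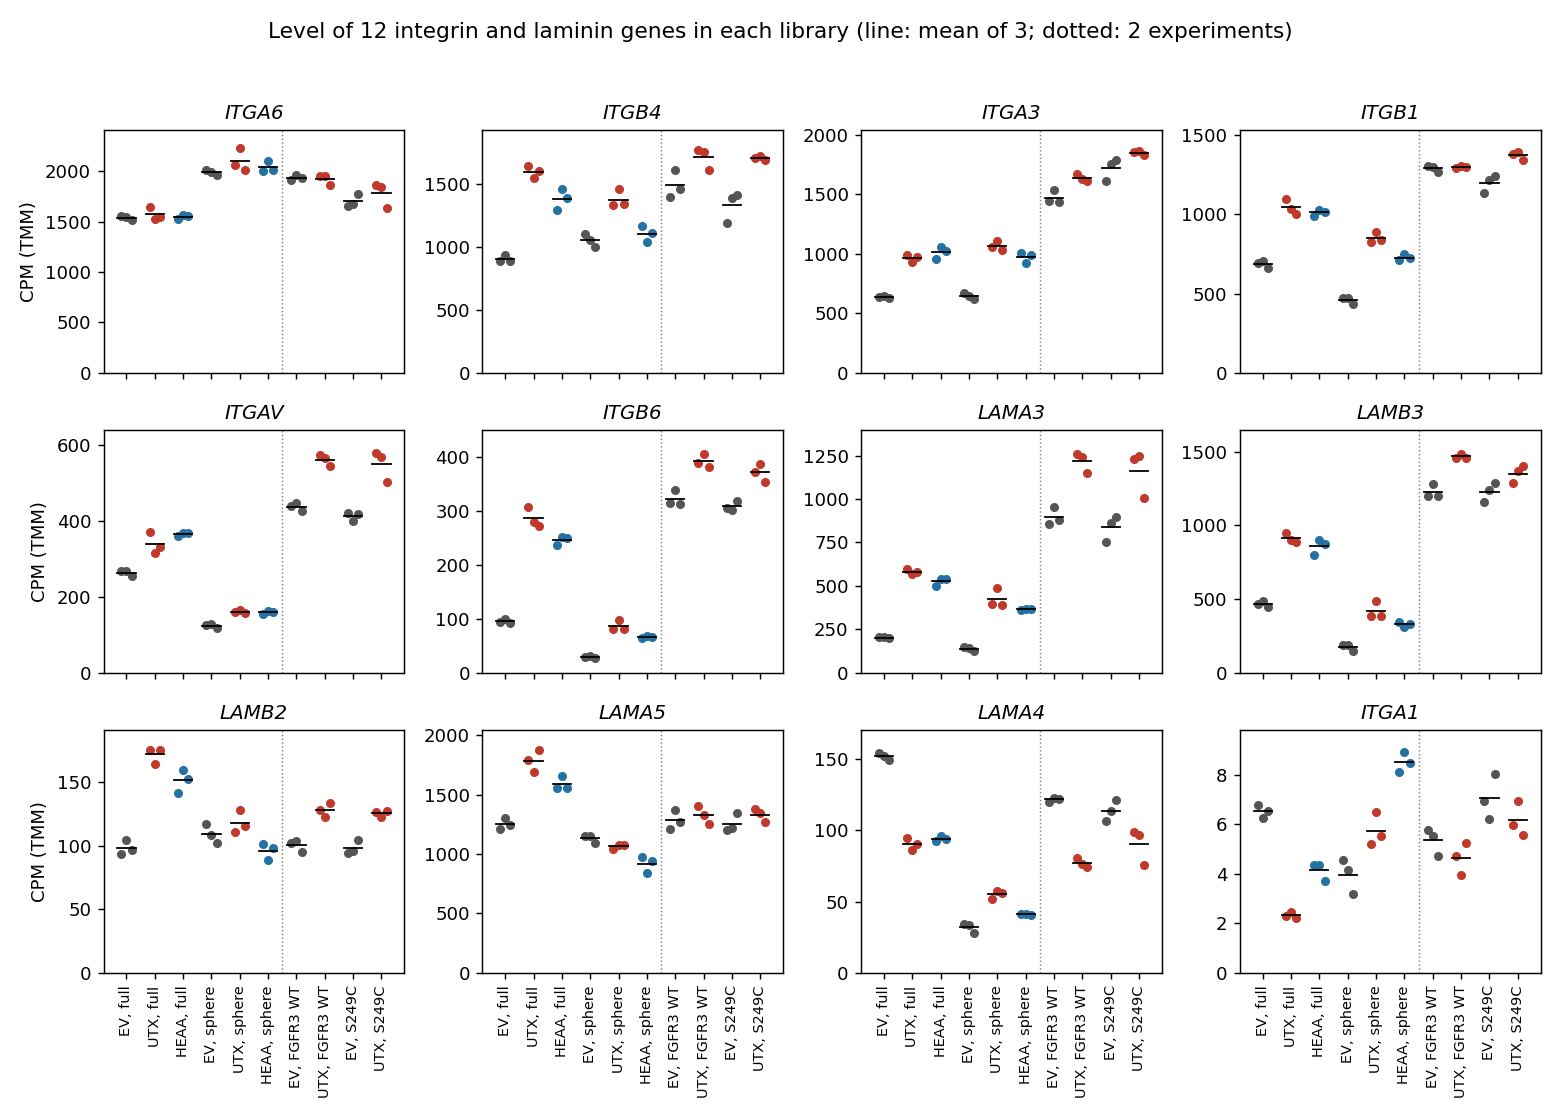
Level of 12 members in each of the 30 libraries, in CPM on linear axes that start at 0; each point is 1 library, the short line is the mean of 3, and the dotted line separates the experiments, which were normalized apart. In full medium LAMA3, LAMB3, ITGB4 and ITGB6 are higher with UTX or HEAA than with EV, while LAMA4 and ITGA1 are lower.

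The HEAA form allows the comparison of UTX with a form changed at 2 residues of its demethylase domain. In full medium, 20 of 32 members differed between HEAA and EV cells (15 higher, 5 lower; 48.5% of all genes were called, 23.2% higher and 25.3% lower), and groups did not overlap for 20 members and 58.5% of all genes. LAMA3 was at 498, 539.8 and 539.6 CPM (log2 1.39 ± 0.07 against EV, adjusted p = 3.14e-13) and ITGB6 at 236, 252 and 249.4 (1.37 ± 0.06, 1.11e-13). Both genes were above every EV library. ITGB4 was called at log2 0.62 ± 0.05, and LAMA4 and ITGA1 were lower at -0.69 and -0.66. The collagen receptor subunit ITGA2 rose from 263 to 433 CPM (log2 0.72 ± 0.05).

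UTX and HEAA were then compared directly in full medium, where 8 of 32 members were called (5 higher and 3 lower in UTX) and 21.4% of all genes (8.94% higher, 12.4% lower). None of the called members differed by 2-fold or more. Since the KDM6A level also differed between these cells, as given above, the level and the substitutions cannot be told apart. ITGA1 was lower with UTX, at 2.33 ± 0.121 CPM against 4.15 ± 0.373 (log2 -0.83 ± 0.13, adjusted p = 9.59e-05), and ITGA2 was lower too, at 339 ± 24.2 against 433 ± 15.8 (-0.35 ± 0.05, 3.16e-05). ITGB4 was higher with UTX by log2 0.21 ± 0.05 (95% interval 0.11 to 0.31, adjusted p = 0.0033). LAMA3 and LAMB3 were not called, with intervals of 0.01 to 0.28 for LAMA3 and -0.08 to 0.25 for LAMB3 and adjusted p of 0.134 and 0.506. The number of members called fell to 4 without the third HEAA library and to 4 without the third UTX library. The ITGB6 difference of log2 0.22 lost its call without the first UTX library (0.17, adjusted p = 0.0723), and those of ITGB8, LAMA5, LAMB2 and ITGAE lost theirs without 1 or more libraries (largest adjusted p 0.127, 0.12, 0.171 and 0.241). These were the third library of either group for all 4 genes, the first HEAA library for LAMA5 and LAMB2, the first UTX library for LAMB2 and ITGAE and the second HEAA library for ITGAE.

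Sphere medium lowered most of the members that it changed. In EV cells, 24 of 32 members differed between sphere and full medium, 7 higher and 17 lower, with 65.5% of all genes called (33.1% higher, 32.4% lower). The median log2 change of the members was -0.35 against -0.03 for all genes, and 11 called members changed at least 2-fold. Groups did not overlap for 23 members and 69.5% of all genes. All 11 laminin chains tested were called, 9 of them lower. Of the 7 beta subunits 5 were lower and 1 higher, and of the 14 alpha subunits 3 were lower and 4 higher. EV cells in sphere medium held the lowest mean of the 6 groups for 14 of the 32 members. The share of all genes lowest in this group is not given, so this count cannot be set against the background.

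LAMA4 changed most among the abundant members, from 154, 152 and 149.6 CPM in full medium to 34.4, 33.4 and 27.7 in sphere medium (4.79-fold lower; log2 -2.26 ± 0.06, adjusted p = 4.4e-19). ITGB6 went from 95.2 to 29.3, 31.5 and 26.7 CPM (log2 -1.71 ± 0.07, adjusted p = 1.74e-15). Its partner ITGAV went from 263 to 126, 129.6 and 117 (log2 -1.08 ± 0.05). For these 3 genes no library of 1 medium reached the range of the other. The other subunit that pairs with ITGAV to activate TGF-beta, ITGB8, fell from 21.9 ± 1.19 to 10.5 ± 1.39 CPM (log2 -1.07 ± 0.10, adjusted p = 2.54e-09), and LAMA1, an embryonic alpha chain, from 9.45 ± 1.12 to 2.89 ± 0.725 (log2 -1.71 ± 0.14, adjusted p = 2.86e-10).

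LAMA3 and LAMB3 both fell in sphere medium, LAMB3 more. LAMB3 went from 466, 489 and 445 to 188, 187 and 149.6 CPM in EV cells (log2 -1.41 ± 0.08, 95% interval -1.59 to -1.24, adjusted p = 1.5e-12). LAMA3 went from 204, 203 and 197 to 148, 141 and 127 (log2 -0.54 ± 0.07, -0.68 to -0.40, 3.3e-07). For both genes the media were separate. The 95% intervals of the 2 chains did not overlap, and a difference between chains was not tested otherwise.

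The receptor subunits of the hemidesmosome went the other way. ITGA6 was at 1556, 1548 and 1511 CPM in full medium and 2015, 1987 and 1959 in sphere medium (log2 0.37 ± 0.04, adjusted p = 7.72e-09), and ITGB4 rose from 887, 935 and 887 to 1105, 1055 and 1001 CPM (log2 0.22 ± 0.05, adjusted p = 0.000404), each without overlap. ITGA2 also rose, by 0.31, while ITGA3 gave 637 ± 8.29 and 642 ± 25.3 CPM (95% interval of the log2 difference -0.08 to 0.10). ITGB1 fell by 0.57, LAMC1 by 0.70 and LAMB1 by 0.38 on the log2 scale. Calls of LAMA5 (-0.14) and LAMB2 (0.16) were lost without 1 library: LAMA5 without the second full medium library or the third sphere medium library (adjusted p = 0.0914 and 0.0871), LAMB2 without the first or the third full medium library or the first sphere medium library (0.159, 0.101 and 0.182). The sum of the epithelial and urothelial markers (10 of 10 tested, none at 0 in any group) differed between media. It was 6963 to 7235 CPM in EV cells in full medium and 16802 to 17864 in sphere medium. In UTX cells it was 5425 to 5689 and 9581 to 9621. The single markers were split: 4 were called higher in sphere medium and 6 lower in EV cells (median log2 -0.25), beside 33.1% and 32.4% of all genes. In UTX cells 4 were higher and 5 lower. KRT5, also among the hemidesmosome and keratin genes counted later, went from 2285 to 12505 CPM in EV cells and from 167 to 3307 in UTX cells. The part of these markers in the results was not tested.

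**Figure D3:**
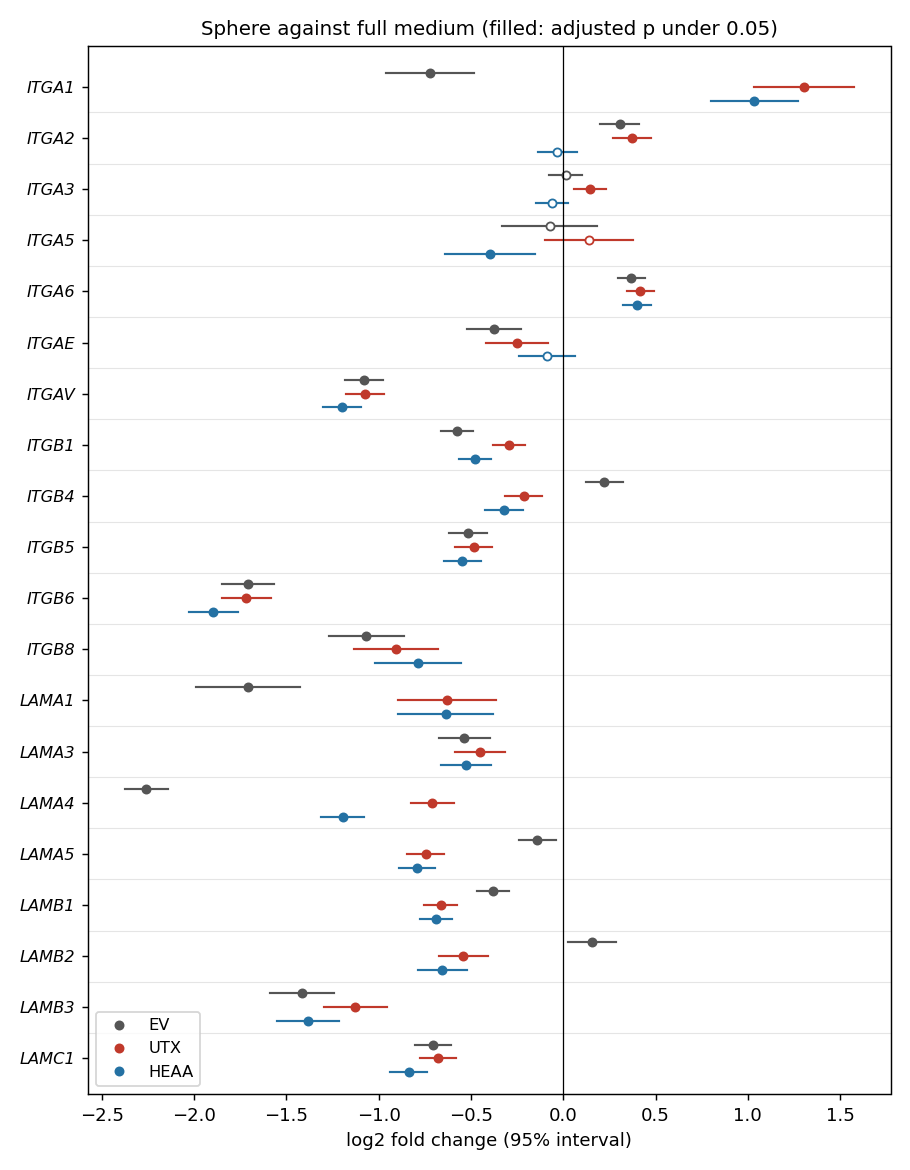
Log2 change from full to sphere medium for members with a mean above 2 CPM in every group, in EV, UTX and HEAA cells. Points are edgeR estimates, bars are 95% intervals and filled points passed adjusted p under 0.05. Most members lie below 0 in all 3 kinds of cells, and ITGA1 lies below 0 in EV cells and above 0 in UTX and HEAA cells.

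Within sphere medium, UTX cells had 22 of 32 members called against EV cells, 17 higher and 5 lower (48.4% of all genes called, 22.8% higher and 25.6% lower), and 8 changed at least 2-fold. Groups did not overlap for 23 of 32 members and 54.6% of all genes. LAMA3 and LAMB3 were again higher: LAMA3 was at 148, 141 and 127 CPM with EV and 394, 489 and 389.6 with UTX (log2 1.61 ± 0.07, adjusted p = 2.18e-14), and LAMB3 at 188, 187 and 149.6 and 385, 485 and 386 (1.26 ± 0.08, 3.65e-11). ITGB6 was at 29.3, 31.5 and 26.7 and 82.0, 97.7 and 81.9 CPM (log2 1.58 ± 0.07, adjusted p = 4.82e-14). None of these 3 genes had overlapping groups, and the second UTX library was the highest for each. LAMA1 was higher with UTX at 5.88, 6.65 and 5.11 CPM against 3.67, 2.78 and 2.23 (log2 1.02 ± 0.15, adjusted p = 5.87e-06). The 5 lower members were ITGB8, ITGAE, LAMB1, LAMA2 and ITGA7. ITGB4 rose by 0.39 (95% interval 0.29 to 0.49, adjusted p = 7.64e-07). ITGA6 was not called (log2 0.08 ± 0.04, interval 0.01 to 0.16, adjusted p = 0.0666), but it was called by DESeq2 (adjusted p = 0.0431) and by edgeR without the third UTX library (0.0184).

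With HEAA in sphere medium, 22 members were called against EV, 16 higher and 6 lower (41.4% of all genes, 19.9% higher and 21.5% lower). LAMA3 (log2 1.40 ± 0.07, adjusted p = 3.48e-13) and ITGB6 (1.18 ± 0.07, 9.18e-12) rose, as did ITGA1 (1.10 ± 0.11, 6.44e-08) and LAMA1 (1.04 ± 0.14, 4.03e-06). The 6 lower members were ITGA7, ITGB8, LAMA2, LAMA5 (-0.30), LAMB1 (-0.26) and LAMB2 (-0.19). ITGB4 was at 1109 ± 62.2 CPM against 1054 ± 52.0 in EV and was not called (95% interval -0.03 to 0.18, adjusted p = 0.252). UTX against HEAA in this medium gave 13 called members, 11 higher and 2 lower with UTX (20% of all genes called, 8.87% higher and 11.2% lower). ITGB4 (log2 0.32 ± 0.05, adjusted p = 0.000106), ITGB6 (0.40 ± 0.06, 0.000175) and LAMA4 (0.42 ± 0.06, 3.1e-05) were higher with UTX, and ITGA1 was lower (-0.56 ± 0.11, 0.00107). The differences of LAMA3 (0.22), LAMB3 (0.35) and ITGA5 (0.48) depended on the second UTX library: without it they were 0.08, 0.21 and 0.33 with adjusted p of 0.318, 0.0616 and 0.0733. LAMA3 was also not called without any 1 of the HEAA libraries (0.0844, 0.0726 and 0.0803).

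**Figure D4:**
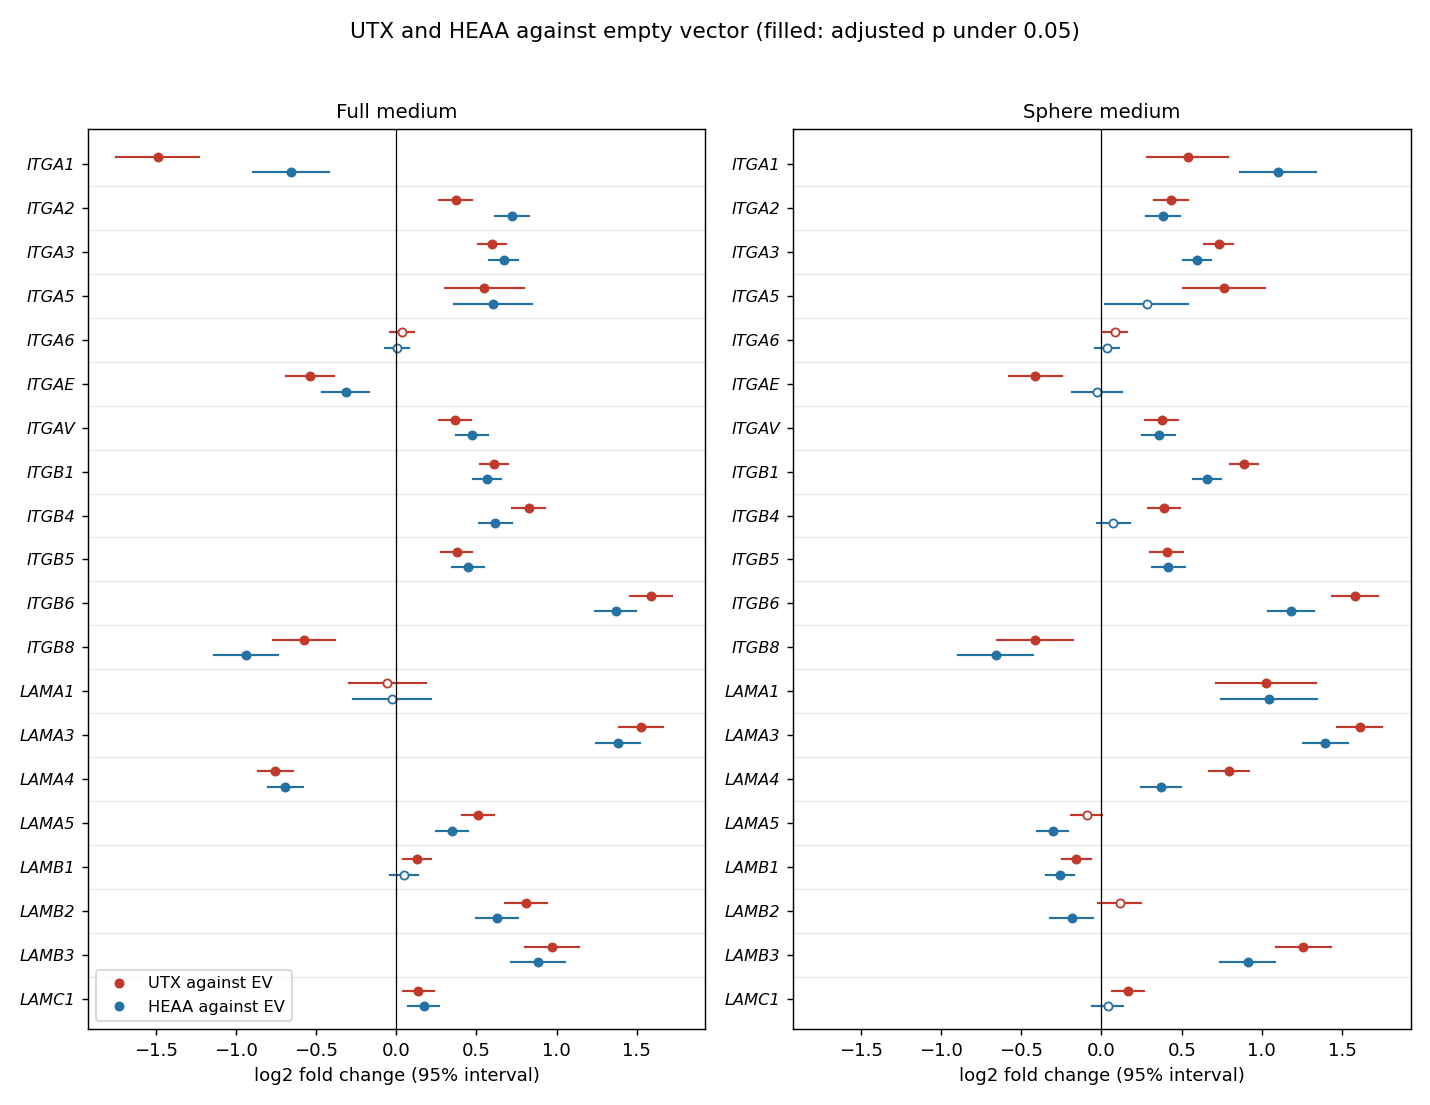
Log2 change of members with a mean above 2 CPM in every group, with UTX (red) and HEAA (blue) against EV, in full and in sphere medium. Points are edgeR estimates, bars are 95% intervals and filled points passed adjusted p under 0.05. ITGB6, LAMA3 and LAMB3 are above 0 in both media, while LAMA4 and ITGA1 are below 0 in full medium and above 0 in sphere medium.

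The UTX effect was tested for a difference between media with an interaction term, for which 37.3% of all genes and 9 of 32 members were called. LAMA4, ITGA1 and LAMB1 changed direction. LAMA4 was lower with UTX in full medium but higher in sphere medium, at 51.8, 57.7 and 56.3 CPM against 34.4, 33.4 and 27.7 with EV (log2 0.80 ± 0.06; interaction 1.55 ± 0.08, adjusted p = 1.98e-12). ITGA1 was at 5.21, 6.48 and 5.54 CPM with UTX and 4.54, 4.17 and 3.17 with EV in sphere medium (log2 0.54 ± 0.12; interaction 2.03 ± 0.17, adjusted p = 6.54e-09). LAMB1 was called higher with UTX in full medium (log2 0.13 ± 0.04, a call lost without single libraries as given above) and lower in sphere medium, at 453, 488 and 441 CPM against 517, 513 and 509 with EV (log2 -0.16 ± 0.04, 95% interval -0.24 to -0.07, adjusted p = 0.00381; interaction -0.28 ± 0.06, adjusted p = 0.000598). In sphere medium its groups did not overlap. LAMA1 (1.08) and ITGB1 (0.28) had a more positive UTX effect in sphere medium. LAMB2 (-0.70), LAMA5 (-0.60) and ITGB4 (-0.44) had a less positive one. The interaction was not called for LAMA3 (95% interval -0.11 to 0.28), ITGB6 (-0.20 to 0.19), ITGA6 (-0.06 to 0.15) or LAMB3 (0.05 to 0.53, adjusted p = 0.0528).

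For HEAA the interaction with medium was called for 10 of 32 members and 33% of all genes, with LAMA4 at 1.06 ± 0.08 and ITGA1 at 1.75 ± 0.16. The basement membrane chains LAMA5 and LAMB2 changed direction the other way. LAMA5 was higher with HEAA in full medium (log2 0.35 ± 0.05, adjusted p = 2.65e-06) and lower in sphere medium (-0.30 ± 0.05, 1.86e-05; interaction -0.65). LAMB2 was higher in full medium (0.63 ± 0.06, 3.47e-08) and lower in sphere medium (-0.19 ± 0.06, 0.0232; interaction -0.81). The lower call of LAMB2 was lost without the first or the second EV library or the second or the third HEAA library (adjusted p = 0.208, 0.0594, 0.202 and 0.0556). The interaction was -0.54 for ITGB4. HEAA cells held 1385 ± 83.4 CPM of ITGB4 in full medium and 1109 ± 62.2 in sphere medium, the reverse order of EV cells. ITGB4 also went down with sphere medium in UTX cells (log2 -0.21 ± 0.05, adjusted p = 0.000516) and in HEAA cells (-0.32 ± 0.05, 4.98e-06). The ratio of ITGB4 to ITGA6 per kb of exon was 0.567 ± 0.0165 with EV, 0.984 ± 0.0197 with UTX and 0.866 ± 0.0411 with HEAA in full medium, and 0.512 ± 0.0181, 0.634 ± 0.0106 and 0.526 ± 0.042 in sphere medium. Sphere against full medium was called for 27 of 32 members in UTX cells (10 higher, 17 lower; 70.5% of all genes, 35.1% higher and 35.4% lower) and for 25 in HEAA cells (7 and 18; 70.8% of all genes, 34.4% and 36.3%). In both, ITGA1 rose, by 1.30 ± 0.13 and 1.03 ± 0.11, while ITGB6 (-1.72 and -1.90), LAMB3 (-1.13 and -1.38), ITGAV (-1.07 and -1.20) and LAMA5 (-0.75 and -0.79) fell. LAMA4 was also called lower in both. Its mean went from 7.79 to 4.77 CPM per kb of exon in UTX cells and from 8.14 to 3.55 in HEAA cells.

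Over the 6 groups of the first experiment ITGB6 had the widest span of the abundant members, 9.826-fold between UTX cells in full medium and EV cells in sphere medium. LAMB3 spanned 5.218-fold, LAMA4 4.783-fold, LAMA3 4.179-fold and ITGA1 3.649-fold. ITGA6 spanned 1.367-fold, from 1538 ± 24.0 CPM in EV cells in full medium to 2103 ± 116 in UTX cells in sphere medium.

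The second experiment asked for the UTX effect in cells that carry an FGFR3 transgene. With wild type FGFR3, 10 of 31 members were called against EV, 7 higher and 3 lower (15.1% of 19399 genes called, 9.06% higher and 6.01% lower), and none changed 2-fold. Groups did not overlap for 13 of 31 members and 34.7% of all genes. LAMA3 was at 856, 955 and 878 CPM with EV and 1259.8, 1244 and 1152 with UTX (log2 0.44 ± 0.08, adjusted p = 0.00146), and LAMB3 at 1200.4, 1280.1 and 1199 and 1458, 1486 and 1460.1 (0.26 ± 0.05, 0.00187). The groups were separate for both chains. ITGAV (0.36), LAMB2 (0.35) and ITGB6 (0.28) rose, and LAMA4 fell from 119.7, 123 and 122 to 80.8, 76.3 and 73.9 CPM (log2 -0.66 ± 0.08, adjusted p = 4.13e-05), as did ITGB8 (-0.37). The small differences of ITGA3 (0.15) and ITGB5 (-0.16) were called but lost that without any of 5 single libraries (adjusted p 0.0604 to 0.157 for ITGA3 and 0.0706 to 0.157 for ITGB5). Those libraries were every one except the second EV library for ITGA3 and the first for ITGB5.

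ITGB4 was at 1401, 1618 and 1468 CPM with EV and 1778, 1757 and 1617 with UTX in the presence of wild type FGFR3. Its groups overlapped at their edge and it was not called (log2 0.20 ± 0.07, 95% interval 0.06 to 0.34, adjusted p = 0.059). It was called by DESeq2 (adjusted p = 0.0242) and by edgeR without the second EV library (0.0237) or the third UTX library (0.0448). ITGA6 gave 1934 ± 29.4 and 1922 ± 53.4 CPM, with an interval of -0.12 to 0.10 for the log2 difference.

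With FGFR3 S249C, 12 of 31 members were called for UTX against EV, 10 higher and 2 lower. Of all genes 21.5% were called, 12.9% higher and 8.62% lower. Without the third UTX library 14 members were called (11 and 3). Among the 17381 genes tested in both experiments, 2529 were then called higher and 1823 lower. Groups did not overlap for 16 members and 33.9% of all genes. LAMA3 was at 751, 861 and 896 CPM with EV and 1232, 1245 and 1003 with UTX (log2 0.47 ± 0.08, adjusted p = 0.000702; 0.56 without that library). ITGB4 was at 1191, 1389 and 1419.6 and 1714, 1729 and 1696 (0.36 ± 0.07, 0.0012; 0.36). In both genes every UTX library was above every EV library. ITGA2, LAMA1, ITGAV, LAMB2, ITGB6 and ITGB1 were also higher (log2 0.49, 0.42, 0.42, 0.36, 0.27 and 0.20), and ITGB8 was lower (-0.39). Without that library these values were 0.58, 0.51, 0.47, 0.34, 0.30, 0.21 and -0.43, and all 7 remained called. LAMA4 was lower, with a log2 difference of -0.33 ± 0.08, or -0.22 without the third UTX library, whose 75.7 CPM stood under 99.0 and 97.0.

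LAMB3 was not called with S249C, at 1229 ± 66.3 CPM with EV and 1352 ± 59.0 with UTX (log2 0.14 ± 0.05, 95% interval 0.03 to 0.24, adjusted p = 0.0602), but it was by DESeq2 (0.0268) and without the third EV (0.0366) or first UTX library (0.0322), while without the third UTX library it was 0.11 (0.158). ITGA6 was not called either (interval -0.04 to 0.17; adjusted p = 0.0748 without the third UTX library). A difference of the UTX effect between the 2 FGFR3 forms was called for 0 of 31 members by edgeR, with 4 at an unadjusted p under 0.05 (ITGAX, ITGB1, LAMA1 and LAMA4), and for 1 by DESeq2. Without the third UTX library with S249C it was called for 1 member, LAMA4, at 0.45 ± 0.07 (adjusted p = 0.007) against 0.33 ± 0.11 (0.291) with all libraries. Of all genes 0.686% were called. The intervals of the interaction were -0.04 to 0.36 for ITGB4, -0.27 to 0.03 for LAMB3, -0.22 to 0.28 for LAMA3 and 0.09 to 0.58 for LAMA4. Without that library they were -0.04 to 0.38, -0.30 to 0.00, -0.07 to 0.32 and 0.29 to 0.60.

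**Figure D5:**
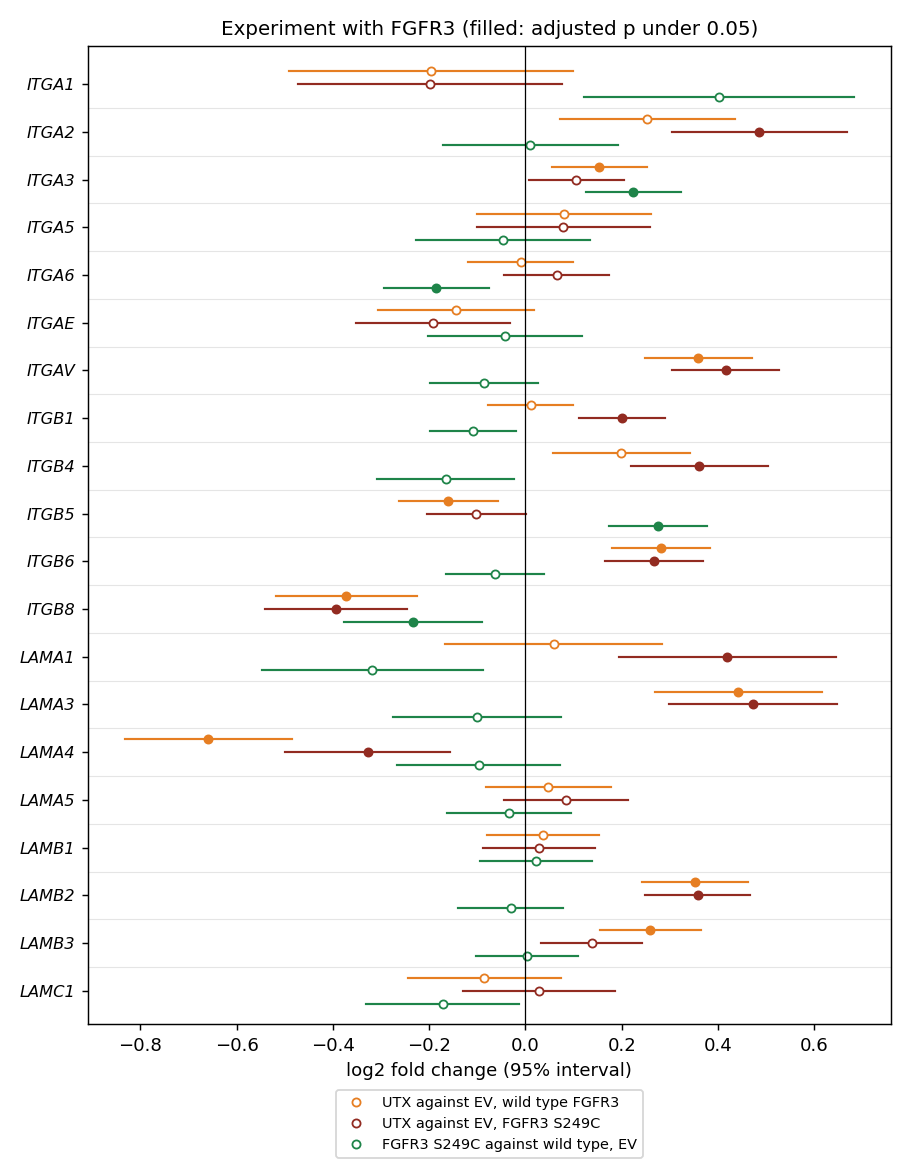
Log2 change of the abundant members for UTX against EV with wild type FGFR3 (orange) or S249C (dark red), and for S249C relative to wild type FGFR3 in EV cells (green); points are edgeR estimates, bars are 95% intervals and filled points passed adjusted p under 0.05. LAMA3 is called higher with UTX under both FGFR3 forms, and LAMA4 and ITGB8 lower; no laminin chain is called for S249C against wild type.

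Since FGFR3 RNA was higher in the cells with S249C, the substitution and the level of the transgene cannot be told apart in what follows. In EV cells, S249C against wild type FGFR3 gave 4 called members of 31, 2 higher and 2 lower (10.8% of all genes called, 4.31% higher and 6.45% lower), and groups did not overlap for 12 members and 30.5% of all genes. ITGB5, a vitronectin receptor subunit, was at 212, 234 and 221 CPM with wild type FGFR3 and 257, 269 and 281 with S249C (log2 0.28 ± 0.05, adjusted p = 0.00199), and ITGA3 at 1443, 1536 and 1435 and 1611, 1756 and 1788 (0.22 ± 0.05, 0.00639). Neither overlapped between groups. ITGA6 (-0.18 ± 0.05, 0.0308) and ITGB8 (-0.23 ± 0.07, 0.0379) were lower, and each lost its call without any of 5 of the 6 libraries (adjusted p 0.0549 to 0.0892 and 0.0768 to 0.147). The exceptions were the third S249C library for ITGA6 and the first wild type library for ITGB8. The count of 4 fell to 2 without the first S249C library and without the second or the third wild type library. No laminin chain of 10 was called by edgeR, with 2 at an unadjusted p under 0.05, and the 95% intervals were -0.27 to 0.07 for LAMA3 and -0.10 to 0.11 for LAMB3. ITGB4 was not called (log2 -0.17 ± 0.07, -0.31 to -0.02, adjusted p = 0.135). In UTX cells 1 member was called and 3.05% of all genes (1.71% higher), ITGB5 again (log2 0.33 ± 0.05, adjusted p = 0.00105). Without the third UTX library with S249C that count was 3, and the ITGB5 difference was 0.30 (adjusted p = 0.00214).

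The 2 experiments share no library, so their UTX effects can be set side by side. Of 31 members tested in both, 16 were called higher with UTX in full medium without an FGFR3 transgene and 7 with wild type FGFR3, of which all 7 (43.8% and 100%) were in both sets, among them ITGA3, ITGAV, ITGB6, LAMA3, LAMB2 and LAMB3. Lower calls numbered 5 and 3, with ITGB8 and LAMA4 in both (40% and 66.7%). ITGB5 was called higher in the first and lower in the second, where the call was lost without any of 5 single libraries (adjusted p 0.0706 to 0.157). Over all 17228 genes tested in both experiments, the higher calls in both sets made up 23.4% of the first and 70.9% of the second, and the lower calls 13.6% and 67.2%. With S249C, 8 of the 10 higher calls of members (50% and 80%) and both lower calls (40% and 100%) were shared with full medium, against 29.9% and 63.5% of the higher calls and 20.3% and 70.2% of the lower calls over all genes. Without the third UTX library with S249C the shared calls of members were 9 of 11 higher (81.8%) and 2 of 3 lower (66.7%). Over all genes 64.7% of the higher and 71.6% of the lower S249C calls were then shared. These are counts, and whether members shared more calls than other genes was not tested. The sizes differed: LAMA3 rose by 1.53 on the log2 scale in the first experiment and by 0.44 and 0.47 in the second, and LAMB3 by 0.97 against 0.26. EV cells started at 201 CPM of LAMA3 in the first experiment and 897 in the second, but the tables were normalized separately and the vectors and library kits differed, so these levels cannot be compared by a test.

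Several members best known from other cell types were near the detection limit. ITGAE and LAMA4 were not: in the first experiment their group means were 9.18 to 15.9 and 31.8 to 152 CPM. The leukocyte subunits ITGAL, ITGAM and ITGAX had means of at most 0.859, 0.897 and 0.676 CPM in the first experiment, each in HEAA cells in sphere medium, and their partner ITGB2 had 0 to 5 counts per library. Of the defining leukocyte genes, TYROBP was at 0 in every library of the first experiment and PTPRC had 0 to 13 counts. The 8 leukocyte markers summed to 4.98 to 5.13 CPM in EV cells in full medium and 21.8 to 22.3 in UTX cells in sphere medium, where most of the sum was LAPTM5 and CD14. In the second experiment 5 of the 8 markers were in the table and none was at 0 in a whole group. They summed to 28.6 to 30.9 CPM in EV cells and 27.2 to 29.6 in UTX cells with wild type FGFR3, and to 19.4 to 24.8 and 30.2 to 32.6 with S249C. There PTPRC had 2 to 15 counts per library. LYZ had 160 to 190 counts in EV cells and 48 to 57 in UTX cells with wild type FGFR3 (64 to 94 and 46 to 66 with S249C), and CD3E 38 to 53 and 0 to 2 (12 to 14 and 0 to 2). Their part in the levels of these subunits was not tested. ITGB7, which pairs with ITGAE or ITGA4, was at 0.640 CPM in EV and 2.51 in HEAA cells in sphere medium. ITGB3 had 24 counts over the 3 EV libraries and 126 over the 3 UTX libraries in full medium. In sphere medium EV cells had 1 count in all, a ratio to full medium of 0.0421 with a counting interval of 0.00102 to 0.258, and UTX cells had 3 (ratio 0.0278, interval 0.00565 to 0.083). These intervals cover counting error only.

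Genes that act with the members were counted in 4 lists. The first held 6 hemidesmosome and keratin genes, PLEC, DST, COL17A1, CD151, KRT5 and KRT14. The others held 16 other basement membrane genes, integrin activation and focal adhesion genes, and 14 integrin ligands. With UTX in full medium 4 hemidesmosome and keratin genes were higher and 2 lower of 6. The hemidesmosome proteins COL17A1 and DST rose (log2 1.08 ± 0.05 and 0.96 ± 0.06), while the basal keratin KRT5 fell from 2285 to 167 CPM (-3.77 ± 0.05). Of 15 basement membrane genes tested 12 were higher and 2 lower. The type IV collagen chains COL4A3 and COL4A4 went from 1.65 to 24.9 CPM and from 13.6 to 125 CPM. Of 24 focal adhesion genes 12 were higher and 8 lower, with FERMT2, a kindlin, at 1.50 ± 0.14 and PARVB, a parvin, at -1.37 ± 0.08. Of 11 ligands 5 were higher and 4 lower: FN1, fibronectin, rose from 654 to 2031 CPM, and SPP1, osteopontin, fell from 334 to 8.36 CPM. Of all genes 57.7% were called, 28.4% higher and 29.2% lower. The medians were 0.56, 0.88, 0.12 and 0.03 on the log2 scale against 0.04 for all genes. With HEAA in full medium the counts were 4 higher and 1 lower, 12 and 2, 11 and 7, and 5 and 2 (48.5% of all genes called), with medians of 0.58, 0.75, 0.09 and 0.09 against 0.03 for all genes.

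Sphere medium in EV cells lowered most genes of 3 of these lists. Basement membrane genes were called higher for 2 and lower for 11 of 15, focal adhesion genes for 3 and 19 of 24, and ligands for 2 and 8 of 11, with medians of -0.84, -0.48 and -2.68 against -0.03 for all genes, of which 33.1% were called higher and 32.4% lower. COL4A1 went from 64.5 to 1.23 CPM, FN1 from 654 to 15.9 CPM and THBS1, thrombospondin, from 2270.2 to 10.7 CPM. Hemidesmosome and keratin genes were higher for 4 and lower for 1 of 6 (median 0.68). The largest changes were in the basal keratins KRT14, from 12.7 to 1326 CPM, and KRT5 (2.45 ± 0.05). With UTX in sphere medium KRT14 and KRT5 were lower than with EV (-1.97 ± 0.04 and -1.92 ± 0.05), and THBS1 and TNC, tenascin, were higher (2.65 ± 0.10 and 2.17 ± 0.06). There, 3 hemidesmosome and keratin genes were higher and 2, KRT14 and KRT5, were lower. The other lists gave 8 and 3, 10 and 6, and 7 and 2. Of all genes 48.4% were called, 22.8% higher and 25.6% lower. The medians were 0.17, 0.54, 0.07 and 1.04 against -0.01 for all genes.

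In the second experiment UTX with wild type FGFR3 gave 2 higher and 1 lower of 6 hemidesmosome and keratin genes. It gave 8 and 2 of 14 basement membrane genes, 1 and 4 of 23 focal adhesion genes and 6 and 1 of 11 ligands. Of all genes 15.1% were called, 9.06% higher and 6.01% lower. The medians were 0.17, 0.26, -0.02 and 0.26 against 0.00 for all genes. COL17A1 rose (0.64 ± 0.07) and KRT5 fell (-0.73 ± 0.04). COL4A4 (1.34 ± 0.10), FN1 (0.61 ± 0.10) and NPNT, a ligand of epithelial integrins (1.03 ± 0.18), rose, while SPP1 fell (-1.81 ± 0.07). With S249C the counts were 3 and 1, 8 and 1, 8 and 3, and 8 and 1 (21.5% of all genes called, 12.9% higher and 8.62% lower), with medians of 0.34, 0.36, 0.00 and 0.47 against -0.01 for all genes. Without the third UTX library they were 4 and 1, 8 and 1, 8 and 2, and 8 and 1. In EV cells, S249C compared with wild type FGFR3 gave lower calls only when all libraries were fitted. These were 3 hemidesmosome and keratin genes (KRT5, KRT14 and COL17A1), 3 basement membrane genes, 4 focal adhesion genes and 5 ligands. Of all genes 6.45% were called lower and 4.31% higher. Without the third UTX library with S249C, which is in neither group, the lower calls were 4, 4, 5 and 6. In that fit 1 focal adhesion gene was called higher. With all libraries the medians were -0.28, -0.13, -0.08 and -0.28 against 0.00 for all genes. Among the lower genes were KRT14 (-0.81 ± 0.07), KRT5 (-0.81 ± 0.04), COL4A4 (-1.25 ± 0.11), TNC (-0.77 ± 0.12) and FN1 (-0.64 ± 0.10). The UTX effect was called different between the FGFR3 forms for 2 of 11 ligands, both more positive with S249C (SPP1 and FBN1, fibrillin), and for 0.686% of all genes. The ligands' median difference was 0.24 against 0.00 for all genes. Without the third UTX library with S249C the same 2 ligands were called, as were 1 basement membrane gene and 1 focal adhesion gene (NID1 and VCL).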

How the data were processed

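RNA was sequenced from 30 libraries of UMUC1 cells in 2 experiments. Per the file headers and the submitters' processing notes, the authors deposited 2 tables of estimated counts per gene, whole numbers in columns named as Salmon output. The notes name Salmon 0.8, DESeq2, hg19 and GRCh37 without giving their roles. How transcripts were summed to genes, and why the second table holds 20073 genes and the first 58288, is not stated in the labels or headers. Salmon splits reads shared between similar transcripts by probability, so genes with overlapping exons are less certain.

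The estimated counts were tested with edgeR 4.0.16 in R 4.3.3: genes with few reads were removed by group, libraries were scaled by TMM, all groups of an experiment shared 1 quasi-likelihood fit, and p-values were adjusted by the Benjamini-Hochberg method over all genes tested, with a threshold of 0.05. In all, 16 comparisons were made. SE and 95% intervals come from the same fit. CPM are counts scaled to a fixed total per TMM-scaled library. CPM per kb divides by the merged exon length of GENCODE v29 (GRCh38), an annotation that may differ from the authors'. Only the edgeR test was tried on simulated counts, for UTX against EV in full medium and with wild type FGFR3.

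The members and the 9 gene lists (4 of adhesion genes, 5 of cell type markers) were chosen with earlier results of these data known. By the rule for named genes, statistics were given for members called with a log2 change of at least 1 and a mean of at least 2 CPM, for ITGB4, ITGA6, LAMA3 and LAMB3 among others in fixed comparisons, and for up to 3 called genes per list. Other members given with statistics were chosen after their values were seen. The results of 1 member are not reported here, but it stays in the counts. Alternatives were DESeq2 1.42.0, RLE size factors, no filter on low counts, the replicate number as a block and leaving out each library in turn.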

Additional observations from a re-analysis of the deposited data

Results flagged for a closer look

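The following members had a UTX or HEAA effect that differed between full and sphere medium, by the interaction term of the edgeR fit. For UTX, the log2 difference of the effect in sphere medium minus that in full medium was 2.03 for ITGA1 (adjusted p = 6.54e-09), 1.55 for LAMA4 (1.98e-12), 1.08 for LAMA1 (9.56e-05) and 0.28 for ITGB1 (0.000634). It was -0.70 for LAMB2 (2.01e-06), -0.60 for LAMA5 (2.83e-07), -0.44 for ITGB4 (2.84e-05) and -0.28 for LAMB1 (0.000598).

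For HEAA it was 1.75 for ITGA1 (adjusted p = 3.16e-08), 1.07 for LAMA1 (0.000116), 1.06 for LAMA4 (1.48e-09), 1.61 for ITGB7 (0.0212) and 0.29 for ITGAE (0.0352). It was -0.81 for LAMB2 (4.19e-07), -0.65 for LAMA5 (1.64e-07), -0.54 for ITGB4 (2.76e-06), -0.34 for ITGA2 (0.00084) and -0.31 for LAMB1 (0.000342). The ITGB7 and ITGAE values lost their call without any 1 of 4 libraries (adjusted p up to 0.096 and 0.062), namely the second EV library in full medium, the first or second EV library in sphere medium and the second HEAA library in full medium for ITGB7, and the third EV library in full medium, the second EV library in sphere medium and the first or second HEAA library in full medium for ITGAE. Both comparisons use the same EV libraries, so their values are not independent.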

How the results depend on the processing

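Of 228 pairs of a member and a comparison that were called, 196 were called in the same direction under every alternative run, 32 were lost under at least 1, and none reversed. With 1 library left out, the number of members called ranged from 2 to 3 for S249C against wild type FGFR3 in EV cells (4 with all), 1 to 3 for the same in UTX cells (1), 4 to 8 for UTX against HEAA in full medium (8) and 0 to 1 for the UTX by FGFR3 interaction (0). The last was 1 with DESeq2, and S249C against wild type in UTX cells was 2 with DESeq2 and 2 without the filter; the causes were not tested. Small uncalled differences changed sign: ITGA6 for UTX against EV in full medium was -0.00557 without the filter and -2.04e-05 to 0.0546 without single libraries, and with wild type FGFR3 it was -0.0284 to 0.0158. LAMB3 for S249C against wild type in EV cells was -0.0265 to 0.044.

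With the replicate number as a block, 21 members were called for UTX against EV in full medium and 22 in sphere medium, 9 with wild type FGFR3 and 11 with S249C, and 3 calls were lost in all (ITGA3 with wild type FGFR3, ITGAE for UTX against HEAA in full medium and ITGAM with S249C). Whether the numbers pair the samples is not settled. Deviations of libraries with the same number correlated at -0.0636 to 0.0633 in the first experiment (45 pairs), against -0.0615 to 0.0712 for other numbers. In the second they correlated at -0.0862 to 0.156 (18 pairs, 1 of them over 0.1), against -0.0987 to 0.0912. Members under 2 CPM are limited by depth.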
